A study of Mus musculus with 32 samples.

Results

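The transcripts described here are those of 10 mouse liver genes of bile acid metabolism, chosen by name: Cyp7a1, Cyp8b1, Cyp27a1, Cyp7b1, Cyp2c70, Baat, Abcb11, Slc10a1, Nr0b2 and Nr1h4. All 10 were found among the 35275 genes of the deposited table, and all 10 were among the 14438 genes that passed the filter on low counts. Whole liver was taken from male mice of the c57bl6 strain at 16 weeks of age, and polyA RNA was sequenced. The mice were either wild type (WT) or Fatp2-/- (KO), ate a ketogenic diet (KD) or its control-ketogenic diet (CD) from 12 to 16 weeks of age, and were fasted for 4 or 24 h before death. The 8 groups were thus WT CD 4 h, WT CD 24 h, WT KD 4 h, WT KD 24 h, KO CD 4 h, KO CD 24 h, KO KD 4 h and KO KD 24 h, each with 4 animals. Fatp2, the product of Slc27a2, takes up long-chain fatty acids and activates very long-chain ones. How the allele was made and in which cells it acts is not given in the sources used here, and Slc27a2 remained at 121 to 318 CPM (counts relative to the normalised size of each library) in KO livers, against 905 CPM or more in WT livers.

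Bile acids are made from cholesterol in hepatocytes, secreted into bile, reabsorbed in the gut and taken up again from portal blood. Cyp7a1 opens the classic pathway, Cyp27a1 and Cyp7b1 the alternative pathway, and Cyp8b1 and Cyp2c70 decide which primary bile acids a mouse makes. Baat joins bile acids to taurine or glycine, Abcb11 (the bile salt export pump) secretes them into the canaliculus, and Slc10a1 (NTCP) brings them back from blood. Nr1h4 encodes FXR, the nuclear receptor that senses bile acids. FXR induces Abcb11 and Nr0b2, and Nr0b2 encodes SHP, a repressor that acts on Cyp7a1 and Cyp8b1, in part through the nuclear receptor LRH-1 (Nr5a2). Fgf15 from the gut, acting through Fgfr4 and its partner Klb on hepatocytes, also lowers Cyp7a1 expression, and in mice Cyp7a1 transcription follows the liver clock.

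Promoter sequences were looked up for runs of letters like the sites of factors in the FXR circuit and the clock. RefSeq start sites on GRCm38.p6 gave 300-base windows, 250 bases before and 50 after the start, for 7 of the 10 genes. There was no window for Cyp7a1, Cyp7b1 or Baat. Windows were searched on both strands for the FXR-type inverted repeat AGGTCANTGACCT, the direct repeat AGGTCANAGGTCA, the LRH-1-type site CAAGGTCA and the D-box TTATGTAA of the clock factor DBP. The 250 bases before the start are shown for 3 genes, the export pump, the repressor and one of the repressor's targets, because they stand at these steps of the circuit and held a match to the FXR-type or LRH-1-type letters. Each is written 5′ to 3′ on its gene's strand, with matches that differ from the searched letters at 1 position in capitals.
Abcb11, chr2:69342617-69342866, minus strand, inverted repeat in capitals: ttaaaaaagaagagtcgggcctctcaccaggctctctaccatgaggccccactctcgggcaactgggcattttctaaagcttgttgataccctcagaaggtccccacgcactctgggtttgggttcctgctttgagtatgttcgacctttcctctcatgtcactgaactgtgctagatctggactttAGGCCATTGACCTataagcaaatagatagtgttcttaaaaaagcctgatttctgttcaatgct
Nr0b2, chr4:133553126-133553375, plus strand, LRH-1-type sites in capitals: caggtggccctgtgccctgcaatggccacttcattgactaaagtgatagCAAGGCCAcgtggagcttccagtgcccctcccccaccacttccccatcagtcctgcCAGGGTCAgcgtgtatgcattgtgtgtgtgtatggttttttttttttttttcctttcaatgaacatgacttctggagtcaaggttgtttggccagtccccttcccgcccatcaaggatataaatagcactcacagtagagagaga
Cyp8b1, chr9:121916306-121916555, minus strand, LRH-1-type site in capitals: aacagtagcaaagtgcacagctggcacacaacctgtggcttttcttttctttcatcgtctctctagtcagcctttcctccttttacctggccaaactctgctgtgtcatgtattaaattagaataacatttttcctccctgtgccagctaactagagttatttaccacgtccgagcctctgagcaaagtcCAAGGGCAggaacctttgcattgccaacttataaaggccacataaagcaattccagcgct

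In the Abcb11 window the inverted repeat read AGGCCATTGACCT, from base −63 to base −51 counted from the start site. A match with at most 1 mismatch was present in 27 of all 32851 RefSeq windows of mouse promoters (0.0822%), and Abcb11 was the only 1 of the 7 genes that held it. With no mismatch the repeat was found in 3 windows (0.00913%), none of them of these genes, and with up to 2 mismatches in 374 (1.14%), again with only Abcb11 among the 7. The Nr0b2 window held LRH-1-type sites at −201 to −194 and −145 to −138, the Cyp8b1 window held one at −60 to −53, and Abcb11 held one after its start site, outside the bases shown. LRH-1-type sites with at most 1 mismatch occurred in 7566 windows (23.0%), so such a match is common. The D-box with no mismatch was in 308 windows (0.938%) and in none of the 7 genes, and with up to 1 mismatch in 5280 (16.1%) and 4 of the 7. The direct repeat with at most 1 mismatch was in 182 windows (0.554%) and in none of the 7. A match is a run of letters and does not show that a factor binds there.

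On GRCm38, by the deposited coordinates, the synthesis genes were Cyp7a1 (ENSMUSG00000028240) on chromosome 4 from 6265612 to 6275633 (minus strand), Cyp8b1 (ENSMUSG00000050445) on chromosome 9 from 121914356 to 121916305 (minus strand), Cyp27a1 (ENSMUSG00000026170) on chromosome 1 from 74713574 to 74737892 (plus strand). The others of this kind were Cyp7b1 (ENSMUSG00000039519) on chromosome 3 from 18071950 to 18243338 (minus strand), Cyp2c70 (ENSMUSG00000060613) on chromosome 19 from 40153353 to 40187333 (minus strand), Baat (ENSMUSG00000039653) on chromosome 4 from 49489422 to 49506557 (minus strand). The carriers were Abcb11 (ENSMUSG00000027048) on chromosome 2 from 69238282 to 69342616 (minus strand) and Slc10a1 (ENSMUSG00000021135) on chromosome 12 from 80953185 to 80968079 (minus strand), and the receptor genes Nr0b2 (ENSMUSG00000037583) on chromosome 4 from 133553376 to 133556536 (plus strand) and Nr1h4 (ENSMUSG00000047638) on chromosome 10 from 89454234 to 89533585 (minus strand).

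The libraries held 13406678 to 24700310 counts each, and the 10 genes together took 0.1255 to 0.3645% of them. The lowest count of any of the genes in any library was 76 (Cyp7a1), so counting error was small beside the spread between animals. Each library is a separate animal. The numbers in the sample titles run in separate ranges by genotype and by fasting time, so a batch tied to them and those factors cannot be told apart. Hepatocyte markers were high in every library, with a summed level of 35912 to 85934 CPM over 8 genes including albumin. The 8 cholangiocyte markers summed to 28.2 to 75.7 CPM. Fgf15 had at most 1 count in any of the 32 libraries. Some libraries stood apart. The muscle actin transcript Acta1 reached 86.1 CPM in replicate 1 of WT CD 24 h. It reached 78.4 and 178 CPM in replicates 1 and 2 of KO CD 24 h, and 162 CPM in replicate 4 of KO KD 4 h. No other library exceeded 0.504 CPM. KO CD 24 h replicate 4 and KO KD 24 h replicate 4 were known from an earlier analysis of these counts to lie nearer the other diet. The files do not settle whether the labels of these 2 libraries were exchanged, so each diet value in KO livers at 24 h carries that doubt. Dbp, a clock output gene, was at 81.9 CPM in KO CD 24 h replicate 4 and 18.5 to 62.3 CPM in the rest of its group, and at 26.6 CPM in KO KD 24 h replicate 4 and 72.7 to 87.9 CPM in the rest of its group.

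Levels between genes were compared per gene length, as the authors' deposited FPKM (fragments scaled to gene length and library size). In WT CD 4 h livers Slc10a1 was the most abundant of the 10 genes, at 386 ± 47.9 FPKM, followed by Cyp2c70 (293 ± 39.6) and Cyp27a1 (234 ± 22.6; SD, n = 4 each). Cyp7a1 was the least abundant there, at 5.34 ± 4.65 FPKM. The ranking did not hold across conditions, because Cyp7a1 averaged 80.6 FPKM in WT KD 4 h livers, above Abcb11 at 38.8 FPKM in the same livers. On the normalised CPM scale, which is used for all comparisons of 1 gene between groups below, the highest group mean exceeded the lowest by 40.9-fold for Cyp7a1, 14.8-fold for Cyp2c70, 7.69-fold for Cyp8b1, 4.66-fold for Nr0b2 and 3.81-fold for Abcb11. The same ratio was 3.21 for Cyp7b1, 2.23 for Slc10a1, 1.60 for Baat and 1.44 for both Cyp27a1 and Nr1h4. These last 2 genes, which encode the enzyme that starts the alternative pathway and the bile acid receptor, passed the test in none of the 20 contrasts.

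**Figure D1:**
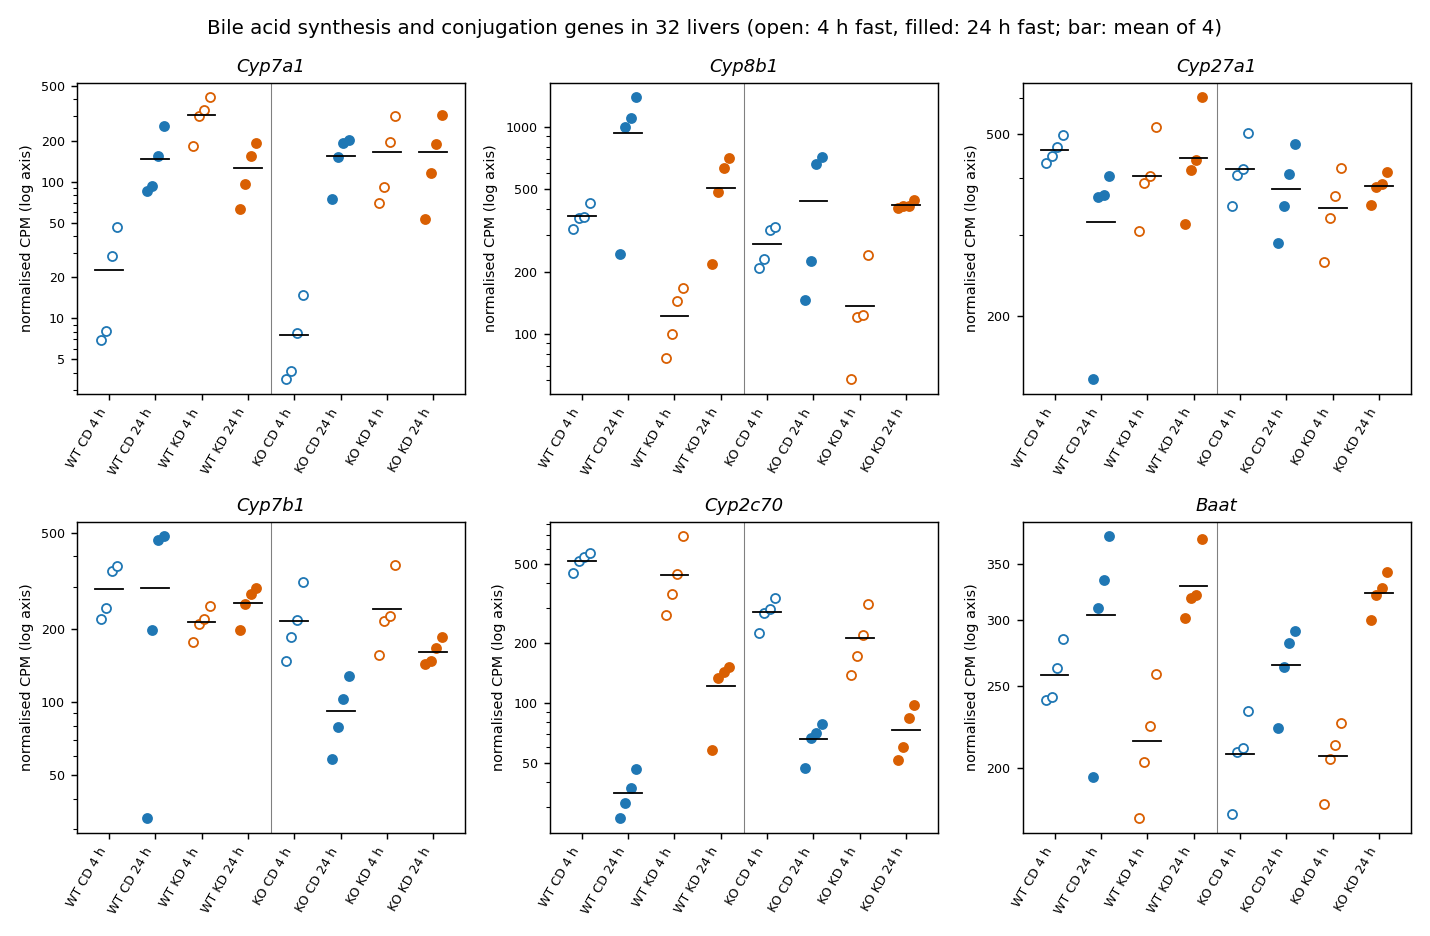
Normalised CPM (log axis) of the 6 synthesis and conjugation genes in each of 32 livers, by group; open circles are 4 h and filled circles 24 h of fasting, blue is CD and orange KD, and bars are means of 4. Cyp7a1 lies between 3.57 and 46.7 CPM in the 8 CD livers at 4 h and at 53.7 CPM or more in the other 24, while Cyp27a1 keeps within 145 to 602 CPM throughout.

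Diet was compared first in WT livers after the short fast, where the ketogenic diet went with the widest changes. Of the 10 genes 1 was higher on KD and 4 were lower, beside 10.8% of all 14438 tested genes higher and 16.5% lower. Cyp7a1 rose 13.7-fold in mean level while the repressor gene Nr0b2, the export pump Abcb11, the uptake carrier Slc10a1 and Cyp8b1 fell. A fall in a transcript of whole liver can come from fewer cells of a type or from less RNA per cell, and these cannot be told apart. All tests are edgeR quasi-likelihood tests with Benjamini-Hochberg adjustment over all tested genes, and log2 fold changes are given ± SE.

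Cyp7a1, the rate-limiting enzyme of the classic pathway, was at 8.11, 6.88, 28.5 and 46.7 CPM in the 4 WT CD 4 h livers and at 334, 183, 300 and 417 CPM in the 4 WT KD 4 h livers. The groups did not overlap, and the spread in CPM was wider on KD (SD 97.2) than on CD (SD 18.9). The log2 fold change was 3.77 ± 0.63 (edgeR adjusted p = 7.25e-05). Cyp8b1, the sterol 12α-hydroxylase that directs synthesis towards cholic acid, went the other way, from 364, 429, 322 and 367 CPM on CD to 100, 166, 76.7 and 144 CPM on KD. The groups did not overlap, and the log2 fold change was −1.60 ± 0.46 (edgeR adjusted p = 0.0104). Thus the enzymes that open the classic pathway and that set its product moved in opposite directions in the same livers.

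The other synthesis genes did not pass in this comparison. Cyp2c70, which in mice makes muricholic acids, was at 521, 451, 546 and 568 CPM on CD and 354, 276, 694 and 446 CPM on KD. The groups overlapped, with 1 KD liver above every CD liver. Log2 fold changes were −0.24 ± 0.28 for Cyp2c70, −0.45 ± 0.42 for Cyp7b1, −0.26 ± 0.15 for Baat and −0.19 ± 0.23 for Cyp27a1 (edgeR adjusted p = 0.557, 0.435, 0.195 and 0.567).

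Among the transport genes, Abcb11 was at 640, 781, 665 and 622 CPM on CD and at 171, 179, 171 and 189 CPM on KD. No liver of one group came near the other, and the spread on KD (SD 8.32 CPM) was narrow. The log2 fold change was −1.93 ± 0.21 (edgeR adjusted p = 2.2e-07). Slc10a1 was at 681, 775, 711 and 531 CPM on CD and 224, 304, 284 and 396 CPM on KD, again without overlap (log2 fold change −1.16 ± 0.29, edgeR adjusted p = 0.00361). Abcb11 overlaps the antisense model Gm13613 and the pseudogene Gm13614. These held at most 36 and 10 counts in any library, against a minimum of 2372 for Abcb11.

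Of the 2 receptor genes, Nr0b2 was at 82.3, 70.8, 60.9 and 76.8 CPM on CD and at 19.6, 14.6, 20 and 19.1 CPM on KD. The 4 KD livers formed the group with the lowest mean of the study, although WT CD 24 h held livers at 10.2 and 15.6 CPM. The KD range did not reach any CD 4 h liver, and the log2 fold change was −1.99 ± 0.41 (edgeR adjusted p = 0.000706). Nr1h4, the receptor itself, was at 108, 120, 119 and 110 CPM on CD and 128, 130, 158 and 162 CPM on KD. Those groups did not overlap either, but the log2 fold change of 0.34 ± 0.16 did not pass (edgeR adjusted p = 0.122). It did in a fit of these 2 groups alone, at 0.38 (edgeR adjusted p = 0.0187).

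**Figure D2:**
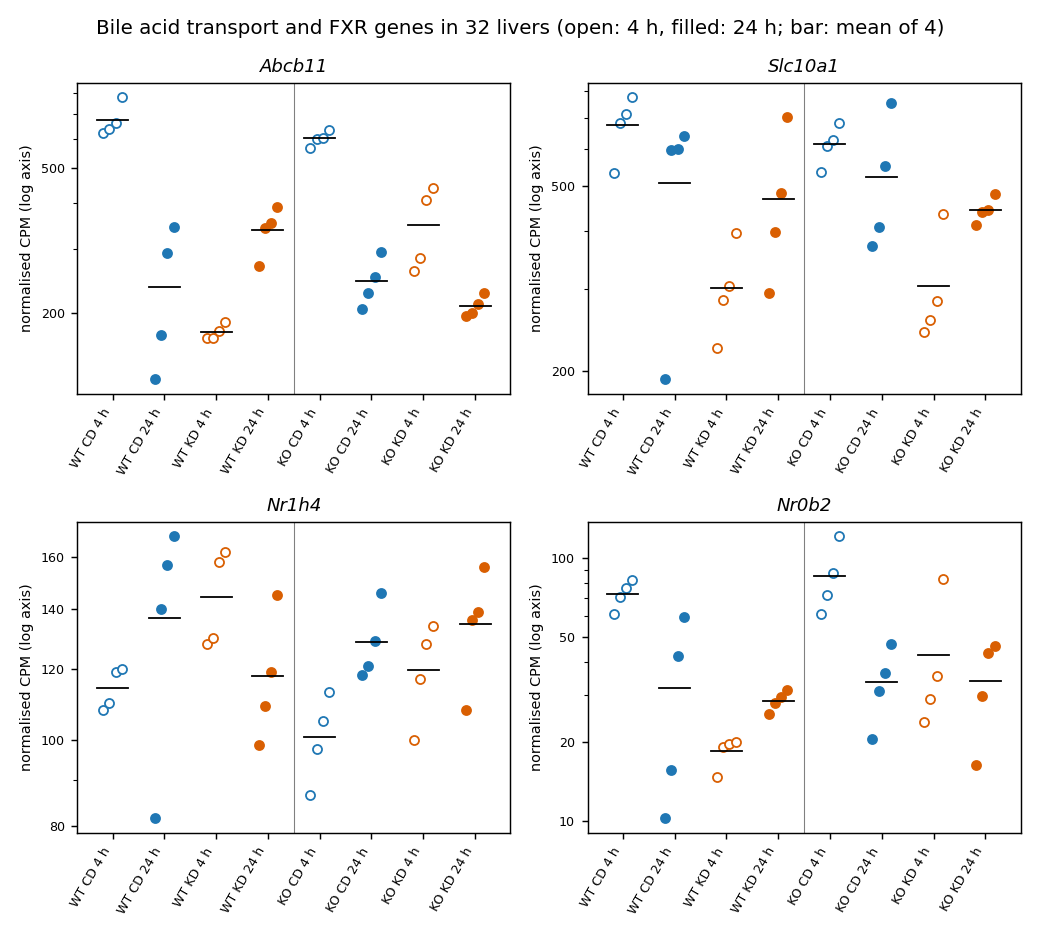
Normalised CPM (log axis) of Abcb11, Slc10a1, Nr1h4 and Nr0b2 in each of 32 livers, by group; open circles are 4 h and filled circles 24 h of fasting, blue is CD and orange KD, and bars are means of 4. In WT livers Abcb11 is at 622 CPM or more in the CD 4 h group and at 390 CPM or less in the other 3 groups, and Nr1h4 stays between 81.6 and 169 CPM in all livers.

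Clock genes and hepatocyte markers moved with diet at 4 h, and their values stand beside these results. The 16 clock genes summed to 906 to 1071 CPM in WT KD 4 h livers and 474 to 625 CPM in WT CD 4 h livers. Of these genes 7 were higher and 5 lower on KD, beside 10.8% and 16.5% of all genes. Dbp, a clock output factor known to act on Cyp7a1, was at 8.42, 7.19, 56.7 and 8.53 CPM on CD and at 85.5, 115, 60.6 and 56.1 CPM on KD. Arntl, which encodes BMAL1, was at 23.2, 26.9, 7.61 and 17.2 CPM on CD and at 0.788, 0.896, 1.31 and 2.33 CPM on KD. The 8 hepatocyte markers summed to 37410 to 61724 CPM on KD and 69296 to 84788 CPM on CD. Of these markers 3 were lower, beside 16.5% of all genes. The part of either in the changes of Cyp7a1, Cyp8b1, Abcb11, Slc10a1 and Nr0b2 was not tested.

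Other genes of bile acid metabolism, 49 in a list of synthesis, transport and control genes, were read the same way. Of the 44 that could be tested in WT livers at 4 h, 6 were higher on KD and 7 lower, beside 10.8% and 16.5% of all genes. The median log2 fold change of the 44 was −0.19, against 0.03 over all genes. Hsd3b7, which acts after Cyp7a1 in the classic pathway, fell from 764 ± 30.1 to 307 ± 39.2 CPM (SD, n = 4 each), which was −1.31 ± 0.17 on the log2 scale (edgeR adjusted p = 2.23e-06). The flippase gene Atp8b1, which protects the canalicular membrane, fell by 0.94 ± 0.13 and the Fgf15 receptor Fgfr4 by 1.18 ± 0.23 on the log2 scale (edgeR adjusted p = 6.38e-06 and 0.000394). Nr1i3, which encodes the xenobiotic receptor CAR, rose from 50.5 ± 12.7 to 229 ± 52.7 CPM (log2 fold change 2.18 ± 0.29, edgeR adjusted p = 3.1e-06).

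In KO livers at 4 h the diets were compared in the same way, and 1 of the 10 genes was higher and 2 were lower on KD, beside 2.56% and 4.66% of all genes. Cyp7a1 was at 3.57, 14.7, 7.81 and 4.11 CPM on CD and at 195, 70.1, 301 and 91.2 CPM on KD. Every KD liver was above every CD liver (log2 fold change 4.44 ± 0.66, edgeR adjusted p = 0.000179). Abcb11 went from 567, 605, 598 and 636 CPM to 441, 408, 284 and 261 CPM, without overlap (log2 fold change −0.79 ± 0.20, edgeR adjusted p = 0.0174). That call was lost without KO KD 4 h replicate 3 or 4 (highest edgeR adjusted p = 0.0972).

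Slc10a1 in KO livers at 4 h went from 625, 682, 536 and 609 CPM on CD to 435, 283, 258 and 243 CPM on KD. The groups did not overlap, and the log2 fold change of −1.01 ± 0.28 (edgeR adjusted p = 0.0294) stayed negative in every fit that left out 1 liver, although 6 of those 8 fits did not pass (KO CD 4 h replicates 1, 2 and 4 and KO KD 4 h replicates 2, 3 and 4; highest adjusted p = 0.122). Nr0b2 was at 87.4, 121, 60.9 and 72.4 CPM on CD and 35.6, 82.9, 23.7 and 29 CPM on KD. KO KD 4 h replicate 2, at 82.9 CPM, reached into the CD range. The log2 fold change of −0.996 ± 0.395 did not pass (edgeR adjusted p = 0.117) and did without that liver (−1.54, edgeR adjusted p = 0.0231). For Cyp8b1 the values were 316, 330, 229 and 209 CPM on CD and 240, 123, 121 and 60.2 CPM on KD, which overlapped, and −0.99 ± 0.45 did not pass (edgeR adjusted p = 0.171). Beside these, the clock genes summed to 875 to 962 CPM on KD and 493 to 696 CPM on CD, and the hepatocyte markers to 35912 to 62439 and 71493 to 82990 CPM, and their part was not tested.

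After 24 h of fasting fewer of the genes separated the diets. In WT livers 1 of the 10 was higher on KD and 0 were lower, beside 1.32% and 1.46% of all genes. The one was Cyp2c70, at 26.2, 31.5, 46.3 and 37.4 CPM on CD and 152, 134, 144 and 57.9 CPM on KD. All KD livers were above all CD livers, and WT KD 24 h replicate 4 was well below its group. The log2 fold change was 1.79 ± 0.29 (edgeR adjusted p = 0.000934). For Cyp7a1 the log2 fold change was −0.22 ± 0.56 and for Abcb11 0.52 ± 0.20, and neither passed (edgeR adjusted p = 0.9 and 0.174). Cyp8b1 passed only without the 4 libraries holding muscle transcripts, at −1.20 (edgeR adjusted p = 0.0256), and Abcb11 only without WT CD 24 h replicate 3, at 0.76 (edgeR adjusted p = 0.0234).

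In KO livers at 24 h none of the 10 genes passed between diets by edgeR or by DESeq2, and 0 of them were under an unadjusted p of 0.05. The background was as low, with 0.00693% of genes (1 gene) higher and 0% lower by edgeR, 109 genes by DESeq2 and 1766 at an unadjusted p under 0.05. The largest log2 fold change among the 10 was 0.81 ± 0.42 for Cyp7b1 (edgeR adjusted p = 0.435). Both libraries known to lie nearer the other diet are in this comparison. Without them 52 of all genes and still 0 of the 10 were called, and Cyp7b1 was at 0.78 (edgeR adjusted p = 0.539).

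**Figure D3:**
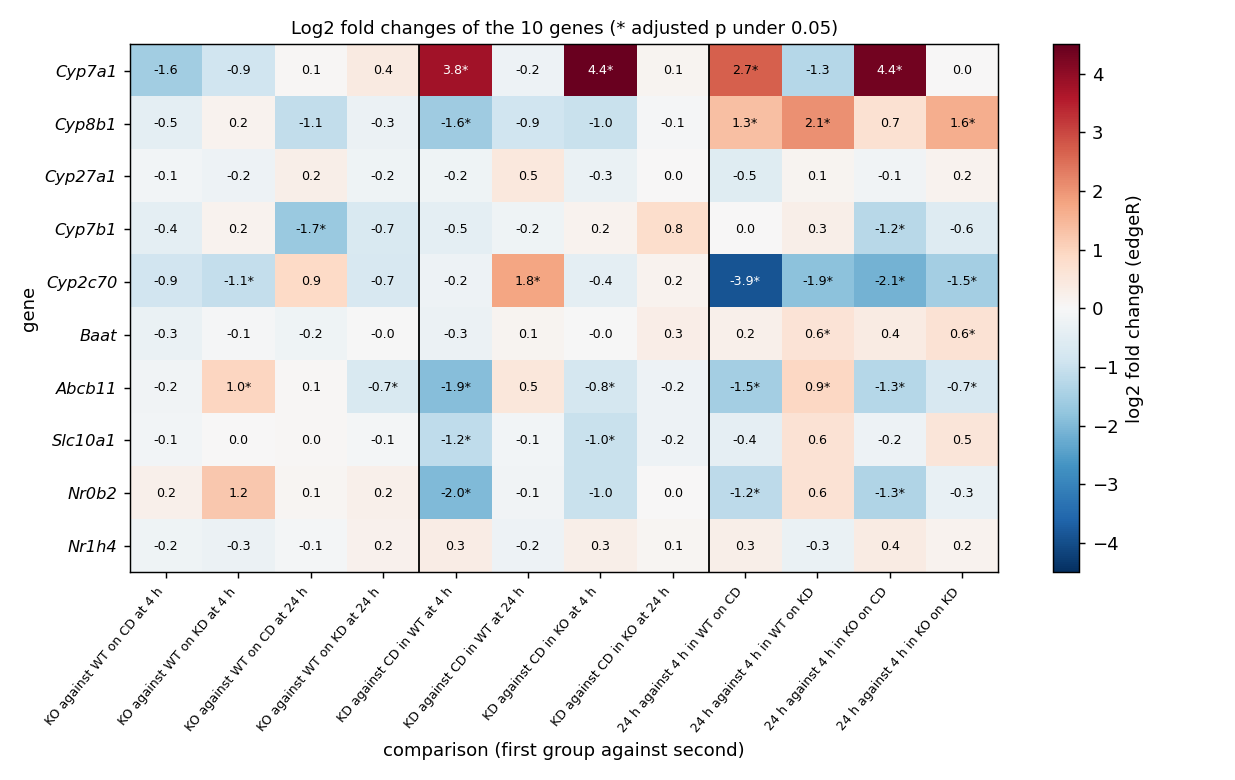
Log2 fold changes (edgeR) of the 10 genes in the 12 pairwise comparisons, with genotype on the left, diet in the middle and fasting on the right; red is higher in the first group, blue lower, and an asterisk marks an adjusted p under 0.05. Cyp7a1 is above 2.7 in the 2 diet comparisons at 4 h and the 2 fasting comparisons on CD, and Cyp2c70 is below −1.5 in all 4 fasting comparisons.

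The longer fast was compared with the shorter one within each genotype and diet. On CD in WT livers 2 of the 10 genes were higher after 24 h and 3 lower, beside 8.89% and 9.61% of all genes. Cyp2c70 had the largest change, from 521, 451, 546 and 568 CPM to 26.2, 31.5, 46.3 and 37.4 CPM. The fasted livers lay 14.8-fold below the others in mean level (log2 fold change −3.88 ± 0.32, edgeR adjusted p = 2.99e-09). Cyp7a1 rose to 93.4, 155, 85 and 256 CPM at 24 h, all above the short-fast livers (log2 fold change 2.71 ± 0.60, edgeR adjusted p = 0.00183). This comparison and that of diet at 4 h share the WT CD 4 h livers, so their values are not independent.

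Cyp8b1 in WT livers on CD was at 244, 1107, 999 and 1397 CPM after 24 h, against 322 to 429 CPM at 4 h. In 3 of the 4 fasted livers it was far above the short-fast range, and in replicate 1 it was below that range. The log2 fold change of 1.34 ± 0.45 (edgeR adjusted p = 0.0376) passed in only 1 of the 8 fits that left out 1 liver, the one without replicate 1 of WT CD 24 h (1.67, adjusted p = 0.0079), and the lowest value of the 8 was 1.09 (highest adjusted p = 0.097). That liver is 1 of the 4 with muscle transcripts. It also had a mean log2 CPM of 4.28 over 15 male-biased liver genes, against 7.21 to 7.76 in the other 3 of its group, and the lowest level in the study of 7 of the 10 genes, Cyp27a1 (145 CPM), Cyp7b1 (33.2), Cyp2c70 (26.2), Abcb11 (132), Slc10a1 (192), Nr0b2 (10.2) and Nr1h4 (81.6). Its summed macrophage (1087 CPM), adipocyte (61.1 CPM) and stellate cell (384 CPM) markers were the highest of the study. The part of these in its bile acid genes was not tested.

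Abcb11 in WT livers on CD went from 622 to 781 CPM at 4 h to 132, 175, 345 and 293 CPM at 24 h (log2 fold change −1.52 ± 0.21, edgeR adjusted p = 5.15e-06). The 24 h livers split into a pair under 200 CPM and a pair near 300 CPM, all below the short-fast group. Nr0b2 split in the same way, at 10.2, 15.6, 59.4 and 42.3 CPM after 24 h against 60.9 to 82.3 CPM (log2 fold change −1.19 ± 0.40, edgeR adjusted p = 0.0353). That call was lost without WT CD 24 h replicate 1 (−0.88, edgeR adjusted p = 0.147) or 2, or without WT CD 4 h replicate 1, 2 or 4. Slc10a1 after 24 h was at 192, 598, 639 and 596 CPM, which overlapped the short-fast range, and −0.41 ± 0.28 did not pass (edgeR adjusted p = 0.326). Baat and Nr1h4 did not pass either (0.24 ± 0.15 and 0.26 ± 0.16, edgeR adjusted p = 0.288 and 0.286), but both did without WT CD 24 h replicate 1 (0.41 and 0.45, edgeR adjusted p = 0.0384 and 0.0282) and without the 4 muscle-containing libraries (0.40 and 0.44, edgeR adjusted p = 0.0386 and 0.043), where Nr0b2 did not (−0.89, edgeR adjusted p = 0.123).

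In KO livers on CD 1 of the 10 genes was higher after 24 h and 4 were lower, beside 8.97% and 9.75% of all genes. Cyp7a1 went from 3.57 to 14.7 CPM at 4 h to 74.6, 192, 151 and 201 CPM at 24 h (log2 fold change 4.36 ± 0.65, edgeR adjusted p = 5.25e-05) and 20.5-fold in mean level. Cyp2c70 went from 298, 338, 285 and 224 CPM to 70.5, 47.1, 78.6 and 66.2 CPM, without overlap (log2 fold change −2.13 ± 0.29, edgeR adjusted p = 2.51e-05). Abcb11 fell to 294, 252, 205 and 227 CPM, from 567 to 636 CPM at 4 h, by 1.30 ± 0.21 on the log2 scale (edgeR adjusted p = 0.000104). The direction of these 3 changes was that seen in WT livers on CD, and the size differed by genotype for Cyp2c70 in the test of that difference given further on.

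Nr0b2 in KO livers on CD fell to 47.1, 36.3, 31.1 and 20.5 CPM after 24 h (log2 fold change −1.34 ± 0.40, edgeR adjusted p = 0.0205). Cyp7b1, the oxysterol 7α-hydroxylase of the alternative pathway, fell from 219, 313, 185 and 148 CPM to 128, 103, 58.5 and 78.7 CPM, without overlap (−1.23 ± 0.42, edgeR adjusted p = 0.0408). Neither passed without the 2 libraries near the other diet (edgeR adjusted p = 0.0758 for Nr0b2 and 0.108 for Cyp7b1, at −1.15 for both), and leaving out single livers ended the Cyp7b1 call in 6 of 8 fits and the Nr0b2 call in 3. Cyp7b1 belongs to a list of 16 male-biased liver genes, of which 9 were lower after 24 h in this comparison. The mean of the other 15 went from 7.02 to 7.69 log2 CPM at 4 h to 5.77 to 6.41. Of 11 macrophage markers 5 were lower, and of all genes 9.75% were. The part of either in the fall of Cyp7b1 was not tested. Cyp8b1 was at 665, 712, 224 and 146 CPM after 24 h, 2 livers above and 2 near or below the short-fast range of 209 to 330 CPM. Its log2 fold change of 0.69 ± 0.45 did not pass (edgeR adjusted p = 0.279), and the 2 high livers were those with muscle transcripts.

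On KD the longer fast was read against a short-fast state in which Cyp7a1 was already high. In WT livers 3 of the 10 genes were higher after 24 h and 1 was lower, beside 6.26% and 4.65% of all genes. Cyp8b1 rose from 100, 166, 76.7 and 144 CPM to 217, 485, 705 and 631 CPM, all fasted livers above all others (log2 fold change 2.06 ± 0.46, edgeR adjusted p = 0.00388). Abcb11 rose from 171 to 189 CPM to 390, 354, 342 and 269 CPM (0.93 ± 0.20, edgeR adjusted p = 0.00315), the reverse of its direction on CD. Baat, the conjugating enzyme, rose from 224, 203, 174 and 259 CPM to 319, 375, 302 and 321 CPM (0.61 ± 0.15, edgeR adjusted p = 0.00824). Cyp2c70 fell to 152, 134, 144 and 57.9 CPM (−1.86 ± 0.29, edgeR adjusted p = 9.49e-05).

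Cyp7a1 in WT livers on KD was at 96.3, 192, 153 and 63.5 CPM after 24 h, lower in mean than the 183 to 417 CPM at 4 h. The groups overlapped by 1 liver, and −1.29 ± 0.57 did not pass (edgeR adjusted p = 0.155), although it did in a fit of these 2 groups alone (−1.31, adjusted p = 0.0393). Nr0b2 was at 28.1, 31.3, 25.5 and 29.6 CPM, above the short-fast livers in all 4, and 0.64 ± 0.40 did not pass (edgeR adjusted p = 0.34) but did in the fit of 2 groups (0.62, adjusted p = 0.0254). Slc10a1 passed only without the muscle-containing libraries, at 0.64 (edgeR adjusted p = 0.0343), against 0.64 ± 0.28 with all libraries (edgeR adjusted p = 0.158). None of the libraries left out is in these 2 groups, so the same livers were compared. The number of all genes called rose from 1576 to 2169 in that fit.

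In KO livers on KD 2 genes were higher after 24 h and 2 lower, beside 4.56% and 4.82% of all genes. Cyp8b1 rose from 240, 123, 121 and 60.2 CPM to 416, 414, 443 and 408 CPM (log2 fold change 1.63 ± 0.46, edgeR adjusted p = 0.024), and the 4 fasted livers were nearly alike (SD 15.6 CPM). That call was lost without KO KD 4 h replicate 2 or 4 (highest edgeR adjusted p = 0.0759). Baat rose from 205, 213, 226 and 181 CPM to 321, 342, 328 and 300 CPM (0.65 ± 0.15, edgeR adjusted p = 0.00822).

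Cyp2c70 in KO livers on KD fell from 138, 220, 314 and 173 CPM to 84.4, 97.4, 51.8 and 59.8 CPM (−1.53 ± 0.29, edgeR adjusted p = 0.0015), so that it passed as lower in all 4 fasting comparisons. Abcb11 fell from 441, 408, 284 and 261 CPM to 212, 197, 201 and 227 CPM (−0.74 ± 0.20, edgeR adjusted p = 0.0224), without overlap, and the call was lost in 4 of the 8 fits that left out a liver (KO KD 24 h replicates 2 and 3, KO KD 4 h replicates 1 and 2; highest adjusted p = 0.105). Cyp7a1 was at 115, 188, 308 and 53.7 CPM (log2 fold change 0.02 ± 0.56, edgeR adjusted p = 0.988).

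**Figure D4:**
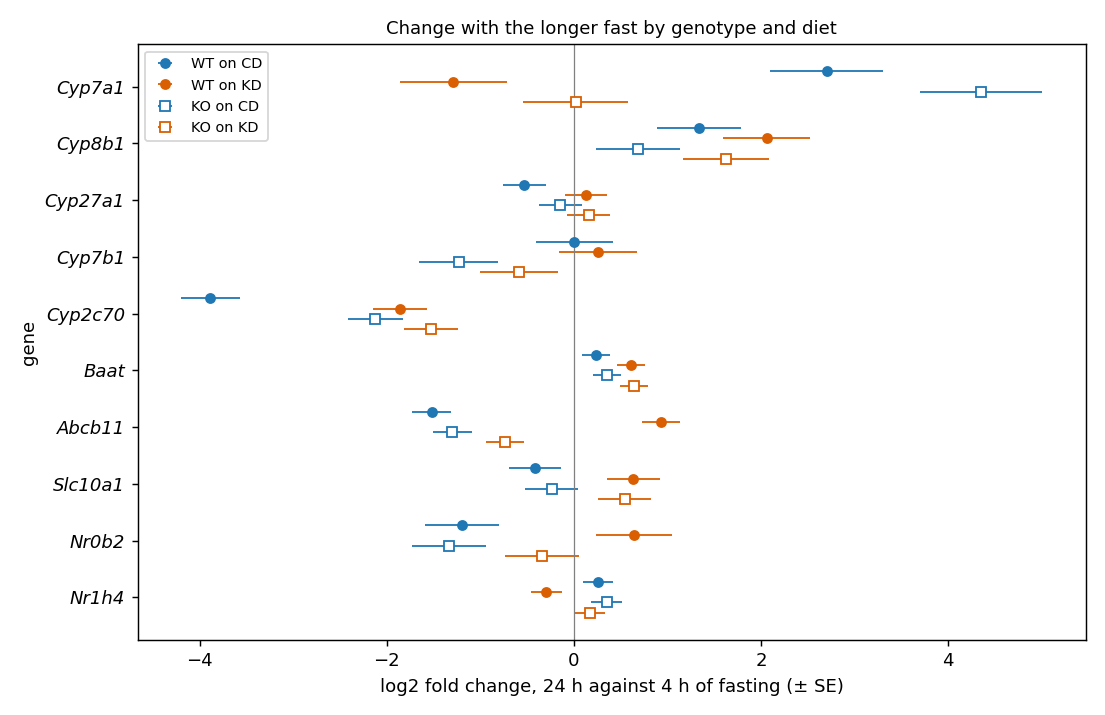
Log2 fold change of 24 h against 4 h of fasting (edgeR, bars are ± SE) for each gene in WT on CD, WT on KD, KO on CD and KO on KD. Abcb11 lies right of 0 in WT on KD (0.93) and left of 0 in the other 3, and Cyp7a1 lies at 2.71 and 4.36 on CD and at −1.29 and 0.02 on KD.

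Among the other bile acid genes, 44 tested, the longer fast on CD raised 9 and lowered 9 in WT livers. Over all genes the shares were 8.89% and 9.61%. In KO livers the longer fast raised 6 and lowered 5, beside 8.97% and 9.75% of all genes. Slco1a4, a sinusoidal carrier of organic anions and bile acids, rose from 16.4 ± 1.34 to 151 ± 130 CPM in WT (SD, n = 4 each; log2 fold change 3.20 ± 0.46, edgeR adjusted p = 8.82e-06), and it was at 346 CPM in replicate 1 and 71.1 to 93.8 CPM in the other 3. In KO it rose by 2.45 ± 0.45 (edgeR adjusted p = 0.000539). Nr1i3 rose in both, by 1.64 ± 0.28 and 1.44 ± 0.28 (edgeR adjusted p = 0.000108 and 0.000886), and Atp8b1 fell by 1.13 ± 0.13 and 0.54 ± 0.13 on the log2 scale (edgeR adjusted p = 5e-07 and 0.00509). In WT the thioesterase gene Acot8 also rose, by 1.05 ± 0.16 (edgeR adjusted p = 2.92e-05). Slc10a2, which encodes the apical bile acid carrier, fell in KO (−1.98 ± 0.43 on the log2 scale, edgeR adjusted p = 0.00213). In WT on CD it went from 7.76 ± 2.29 to 2.83 ± 1.42 CPM (SD, n = 4 each), without overlap.

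On KD 6 other genes were higher and 2 lower in WT livers, beside 6.26% and 4.65% of all genes. In KO livers 2 were higher and 3 lower, beside 4.56% and 4.82% of all genes. Slc10a5, a relative of Slc10a1 whose substrate is not settled, fell by 1.00 ± 0.13 in WT and 1.08 ± 0.13 in KO (edgeR adjusted p = 8.12e-06 and 2.21e-05). Hsd3b7 (0.69 ± 0.17), Fgfr4 (0.88 ± 0.23) and the peroxisomal side-chain oxidase Acox2 (0.92 ± 0.24) rose in WT (edgeR adjusted p = 0.00671, 0.012 and 0.0128). Slco1a4 (3.17 ± 0.49) and the 5β-reductase Akr1d1 (1.14 ± 0.19) rose in KO, where Slco1a1, another sinusoidal carrier, fell by 1.02 ± 0.31 (edgeR adjusted p = 0.000218, 0.00041 and 0.0368). In WT Slco1a4 went from 17.2 ± 6.0 to 40.7 ± 9.68 CPM and Slco1a1 from 683 ± 66.4 to 497 ± 157 CPM (SD, n = 4 each). In KO Hsd3b7 went from 603 ± 78.5 to 491 ± 24.7 CPM and Fgfr4 from 25.4 ± 5.81 to 30.5 ± 2.84 CPM. For a fasting change that differed by genotype 0 of the 44 passed on CD and 0 on KD, beside 0.61% and 0.256% of all genes.

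Whether the effect of fasting depended on diet was tested as an interaction, the fasting change on KD minus that on CD. In WT livers 4 of the 10 genes passed, beside 12.9% of all genes, and in KO livers 1 passed, beside 1.39%. In WT the interaction was −4.00 ± 0.83 for Cyp7a1 (edgeR adjusted p = 0.00164), 2.45 ± 0.29 for Abcb11 (2.6e-06), 2.03 ± 0.40 for Cyp2c70 (0.00118) and 1.84 ± 0.57 for Nr0b2 (0.03). The Nr0b2 call was lost without the 4 libraries holding muscle transcripts (1.54, edgeR adjusted p = 0.0523) and in 5 of 16 fits without 1 liver (WT CD 24 h replicates 1 and 2, WT CD 4 h replicate 1, WT KD 24 h replicate 2, WT KD 4 h replicate 2). In KO it was −4.34 ± 0.84 for Cyp7a1 (edgeR adjusted p = 0.0074), and 0.56 ± 0.29 for Abcb11, 0.60 ± 0.40 for Cyp2c70 and 1.00 ± 0.56 for Nr0b2, which did not pass (0.361, 0.521 and 0.417). Without the muscle-containing libraries Nr1h4 in WT (−0.73, edgeR adjusted p = 0.0161) and Cyp8b1 in KO (1.93, edgeR adjusted p = 0.0228) passed as well. Of KO CD 24 h that fit kept only replicates 3 and 4, and replicate 4 lay nearer the other diet. Among the other genes Atp8b1 (1.48 ± 0.19, edgeR adjusted p = 4.51e-06) and Hsd3b7 (1.33 ± 0.24, 0.000353) had positive interactions in WT, as Abcb11 did.

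KO and WT livers were compared in each condition to ask whether these genes differed by genotype. On CD at 4 h 0 of the 10 genes passed by edgeR or DESeq2, beside 1.38% of all genes higher and 0.45% lower. Those shares are by edgeR, and DESeq2 called 383 of all genes. By an unadjusted p under 0.05, 3 of the 10 (Cyp2c70, Baat and Cyp7a1) and 1337 of all genes were counted. Cyp2c70 was at 521, 451, 546 and 568 CPM in WT and 298, 338, 285 and 224 CPM in KO. The groups did not overlap, and −0.87 ± 0.28 did not pass (edgeR adjusted p = 0.154) but did in a fit of these 2 groups alone (−0.84, adjusted p = 0.00216). Cyp7a1 was at 6.88 to 46.7 CPM in WT and 3.57 to 14.7 CPM in KO, which overlapped (−1.58 ± 0.60, edgeR adjusted p = 0.282).

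On KD at 4 h 1 gene was higher in KO and 1 lower, beside 1.84% and 0.977% of all genes. Abcb11 was at 171, 179, 171 and 189 CPM in WT and at 441, 408, 284 and 261 CPM in KO. Every KO liver was above every WT liver (log2 fold change 0.97 ± 0.20, edgeR adjusted p = 0.00554), which passed in each of the 8 fits that left out 1 liver (0.85 to 1.11). Cyp2c70 was lower in KO, at 138, 220, 314 and 173 CPM against 354, 276, 694 and 446 CPM (−1.07 ± 0.28, edgeR adjusted p = 0.0342). The groups overlapped, and 5 of the 8 fits without 1 liver did not pass (KO KD 4 h replicates 1, 2 and 4, WT KD 4 h replicates 3 and 4; highest adjusted p = 0.215), nor did the fit without the muscle-containing libraries (−0.98, edgeR adjusted p = 0.0583). Nr0b2 was above the WT range in all 4 KO livers, at 23.7 to 82.9 against 14.6 to 20 CPM. Its log2 fold change of 1.22 ± 0.40 did not pass (edgeR adjusted p = 0.101), but did by DESeq2 (adjusted p = 0.0412) and without the libraries holding muscle transcripts (1.37, edgeR adjusted p = 0.0253).

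On CD at 24 h 0 genes were higher in KO and 1 was lower, beside 0.942% and 1.13% of all genes. It was Cyp7b1, at 33.2, 485, 198 and 466 CPM in WT and 128, 103, 58.5 and 78.7 CPM in KO. In WT 3 livers were above every KO liver and replicate 1, the liver with low male-biased genes, was below all of them. The log2 fold change was −1.68 ± 0.43 (edgeR adjusted p = 0.0337) and −2.05 without that liver, and it did not pass without replicate 3 or 4 of KO CD 24 h, replicate 2 or 4 of WT CD 24 h (highest edgeR adjusted p = 0.124), the 2 libraries near the other diet (0.126) or in a fit of these 2 groups alone (0.521). In mice Cyp7b1 is expressed more in male than in female liver. The other 15 male-biased genes averaged 5.77 to 6.41 log2 CPM in KO CD 24 h livers. In WT CD 24 h they averaged 4.28 in replicate 1 and 7.21 to 7.76 in the other 3 livers. Of all 16 such genes, with Cyp7b1 among them, 3 were lower in KO and 0 higher, beside 1.13% and 0.942% of all genes. Their part in the Cyp7b1 difference was not tested. Without the 4 libraries holding muscle transcripts Cyp8b1 (−2.66) and Baat (−0.49) also passed as lower in KO (edgeR adjusted p = 0.000273 and 0.0377), with 3 WT and 2 KO livers left. The KO livers left were replicates 3 and 4, and replicate 4 lay nearer the other diet. Cyp8b1 was at 224 and 146 CPM in them and at 665 and 712 CPM in the KO livers left out.

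On KD at 24 h 0 genes were higher in KO and 1 was lower, beside 2% and 1.95% of all genes. Abcb11 was at 390, 354, 342 and 269 CPM in WT and 212, 197, 201 and 227 CPM in KO. The groups did not overlap, and the log2 fold change was −0.70 ± 0.20 (edgeR adjusted p = 0.049), opposite to its sign after 4 h. This adjusted p lay just under the threshold, and the call was lost with RLE size factors (0.0506), with no filter on low counts (0.0752), once the libraries near the other diet were left out (0.079) and in 7 of 8 fits without 1 liver (all but WT KD 24 h replicate 4; highest 0.142). Macrophage markers were lower in KO livers after 24 h. Of 11 such genes 8 were lower on CD and 6 on KD, beside 1.13% and 1.95% of all genes. Their sum was 163 to 331 CPM in KO and 304 to 1087 CPM in WT on CD. The 1087 CPM was in WT CD 24 h replicate 1, the liver with muscle transcripts and low male-biased genes. On KD the sum was 194 to 324 CPM in KO and 407 to 660 CPM in WT. Their part in the KO values of Cyp7b1 and Abcb11 was not tested.

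The genotype difference averaged over the 4 conditions was also tested. There 0 of the 10 genes were higher in KO and 2 were lower, beside 4.59% and 4.99% of all genes. These were Cyp7b1 (−0.66 ± 0.21, edgeR adjusted p = 0.0431) and Cyp2c70 (−0.44 ± 0.14, edgeR adjusted p = 0.0438), and each call was lost in 23 of 32 fits without 1 liver. Without the 2 libraries near the other diet neither passed (−0.62 and −0.41, edgeR adjusted p = 0.0883 and 0.0919). Without the muscle-containing libraries Cyp2c70 did not pass (−0.42, edgeR adjusted p = 0.0821), and Cyp8b1 (−0.74) and Baat (−0.21) did (edgeR adjusted p = 0.00186 and 0.0402). Of KO CD 24 h that fit kept only replicates 3 and 4, and replicate 4 lay nearer the other diet. In the same average 10 of 11 macrophage markers were lower in KO, and 8 of 16 male-biased genes were lower and 2 higher, and their part was not tested. The average hides that Cyp2c70 was higher in KO in 1 of the 4 conditions, CD at 24 h, where its 4 KO livers at 47.1 to 78.6 CPM lay above the WT livers at 26.2 to 46.3 CPM (0.89 ± 0.29, edgeR adjusted p = 0.0974).

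Whether genotype altered the fasting response was tested within each diet, as the change in KO minus that in WT. On CD 1 of the 10 genes passed, beside 0.61% of all genes, and it was Cyp2c70 (1.76 ± 0.40, edgeR adjusted p = 0.0341), whose fall was smaller in KO. That call was lost without the 2 libraries near the other diet (1.76, edgeR adjusted p = 0.0591) and in 11 of 16 fits without 1 liver (1.63 to 1.92 over all 16; highest adjusted p = 0.0796). The 11 left out every liver of these groups in turn but replicate 2 of KO CD 24 h, replicate 2 of KO CD 4 h, WT CD 24 h replicates 3 and 4 and WT CD 4 h replicate 2. Without the muscle-containing libraries Cyp8b1 (−2.21) and Cyp7b1 (−2.04) also passed on CD (edgeR adjusted p = 0.00724 and 0.00509). That fit kept only replicates 3 and 4 of KO CD 24 h, and replicate 4 lay nearer the other diet. Cyp8b1 was at 224 and 146 CPM in these livers and at 665 and 712 CPM in replicates 1 and 2, which were left out. On KD 1 passed, beside 0.256%, and it was Abcb11 (−1.67 ± 0.29, edgeR adjusted p = 0.00828), which rose with fasting in WT and fell in KO. It passed in all 16 fits without 1 liver.

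Whether genotype altered the diet response gave 0 calls among the 10 genes at 4 h, beside 0.104% of all genes, and 0 at 24 h, beside 0%. By an unadjusted p under 0.05 there were 1 and 2 of the 10, and DESeq2 called 1 in each, Abcb11 at 4 h (1.13, adjusted p = 0.0197) and Cyp2c70 at 24 h (−1.62, adjusted p = 0.0246). Over all genes, 1120 at 4 h and 1221 at 24 h were under an unadjusted p of 0.05, and DESeq2 called 88 and 54. Without the muscle-containing libraries Cyp8b1 (2.38) and Cyp7b1 (1.81) passed at 24 h (edgeR adjusted p = 0.0114 and 0.0268). Of KO CD 24 h that fit kept only replicates 3 and 4, and replicate 4 lay nearer the other diet. For Abcb11 at 4 h the edgeR value was 1.14 ± 0.29 (adjusted p = 0.114), and it passed without the 4 libraries holding muscle transcripts (1.26, edgeR adjusted p = 0.0119). The 3-way interaction of genotype, diet and fasting called 0 of the 10, beside 0.125% of all genes, with Abcb11 at −1.89 ± 0.41 (edgeR adjusted p = 0.0504). Abcb11 passed there by DESeq2 (−1.87, adjusted p = 0.00192), with RLE size factors (0.0448) and with no filter (0.0448). It also passed in 8 of 32 fits without 1 liver (replicate 2 of KO CD 24 h, replicate 4 of KO CD 4 h, KO KD 4 h replicates 3 and 4, WT CD 24 h replicates 1, 3 and 4, WT KD 24 h replicate 4). By an unadjusted p under 0.05, 2 of the 10 and 1208 of all genes were counted, and DESeq2 called 76 of all genes.

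The other bile acid genes were also compared by genotype, with 44 tested, among them Slc27a2, whose fall in KO follows from the genotype itself. On CD at 4 h 3 were higher in KO and 1, Slc27a2 itself, lower, where 1.38% and 0.45% of all genes were. The basolateral exporter Abcc3 was at 64.8 ± 8.83 CPM in WT and 219 ± 41.8 CPM in KO (SD, n = 4 each; 1.76 ± 0.35, edgeR adjusted p = 0.00413), and the sterol exporter Abcg5 (0.72 ± 0.16) and Acot8 (0.69 ± 0.16) were also higher (edgeR adjusted p = 0.0125 and 0.0176). On KD at 4 h 3 were higher and 4, with Slc27a2 among them, lower, where 1.84% and 0.977% of all genes were. Hsd3b7 was at 603 ± 78.5 CPM in KO and 307 ± 39.2 CPM in WT (0.97 ± 0.17, edgeR adjusted p = 0.000655), and Slco1a4 was at 2.41 ± 0.443 and 17.2 ± 6.0 CPM (−2.82 ± 0.49, edgeR adjusted p = 0.000763). At 24 h on CD 1 was higher and 2 lower, where 0.942% and 1.13% of all genes were. These were Abcg5 (0.88 ± 0.16, edgeR adjusted p = 0.00379), Slco1a4 (−2.14 ± 0.43, edgeR adjusted p = 0.00751) and Slc27a2. On KD at 24 h 0 were higher and 1, Slc27a2, lower, where 2% and 1.95% of all genes were. In the average over the 4 conditions 5 were higher and 6 lower, where 4.59% and 4.99% of all genes were. Abcc3 was among the higher (0.89 ± 0.17, edgeR adjusted p = 0.000743) and Slc27a2 among the lower.

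**Figure D5:**
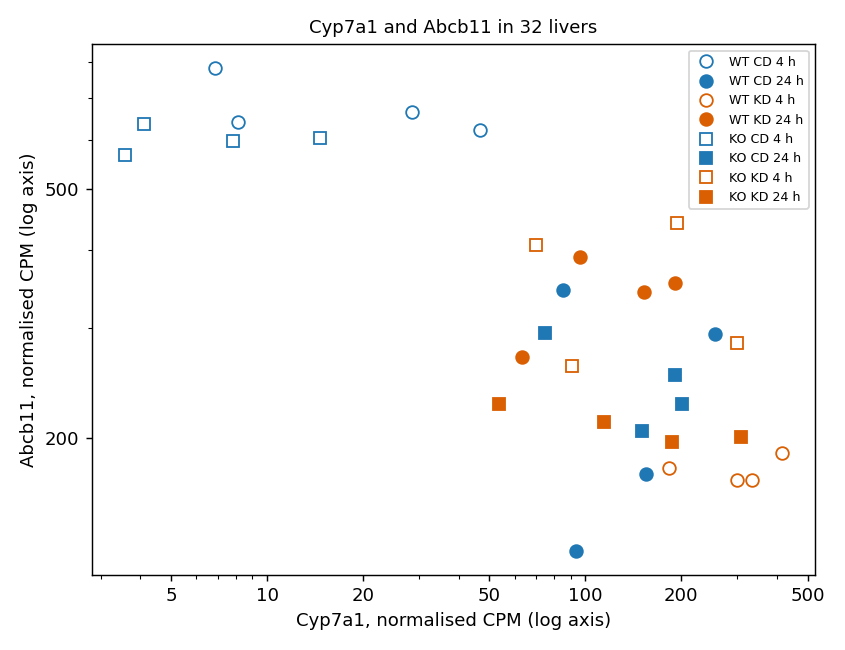
Cyp7a1 against Abcb11 in each of 32 livers, both in normalised CPM on log axes; circles are WT, squares KO, open symbols 4 h and filled symbols 24 h of fasting, blue CD and orange KD. The 8 CD livers at 4 h lie alone at the upper left, with Abcb11 at 567 CPM or more and Cyp7a1 at 46.7 CPM or less.

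Over single livers the plot of Cyp7a1 against Abcb11 showed 2 clouds rather than a line. The 8 CD livers at 4 h had Abcb11 at 567 to 781 CPM and Cyp7a1 at 3.57 to 46.7 CPM, and the other 24 had Abcb11 at 132 to 441 CPM and Cyp7a1 at 53.7 to 417 CPM. Within groups, after the group means were taken off, the 2 genes had a Pearson correlation of −0.08 over 32 livers, and Cyp7a1 and Nr0b2 had −0.25 (−0.40 over 28 livers without the WT CD 24 h group). Cyp27a1 and Slc10a1 (0.87) and Cyp8b1 and Slc10a1 (0.84) varied together most closely, and they stayed at 0.77 and 0.78 without WT CD 24 h. Abcb11 and Nr0b2, both known FXR targets, had 0.73, which fell to 0.44 without that group. Cyp7a1 and Nr1h4 had 0.56. These are descriptions across livers that share a library, a depth and a liver, and no test was made of them.

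The genes with patterns most like each of the 10 were found by the Pearson correlation of log2 CPM over all 32 livers, among 7569 named genes of at least 10 CPM in mean. Abcb11 was followed most closely by Cars (0.95), Tuba4a (0.92) and Stom (0.92), and Slc10a1 by Serpina1d (0.93), Ceacam1 (0.93) and Smoc1 (0.92). Baat was nearest Azgp1 (0.93), Amy1 (0.90) and Apoa1 (0.84), and Cyp2c70 nearest Cml1 (0.92), Cadps2 (0.89) and Slc22a28 (0.88). For Cyp8b1 they were Pglyrp2, Slc25a39 and Stt3b (0.90 each), and for Nr0b2 Ctdsp1 (0.88), Map2k5 (0.87) and Dhrs3 (0.87). Cyp7b1 was nearest Glul (0.84), Hsd17b2 (0.82) and C6 (0.80), and Cyp27a1 nearest F7, Ldhd and Erap1 (0.83 each). Cyp7a1 had lower values, with Zfp113 (0.81), Ces1b (0.80) and Gpcpd1 (0.78), and Nr1h4 the lowest, with Ugt2a3 (0.74), Stard5 (0.72) and Itch (0.66).

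The order of the group means shows where neighbours could not be separated. For Cyp7a1 the KO CD 4 h (7.54 ± 5.11 CPM) and WT CD 4 h (22.5 ± 18.9 CPM) groups were lowest and overlapped, a gap followed, and the next 6 groups from WT KD 24 h (126 ± 57.4 CPM) to WT KD 4 h (309 ± 97.2 CPM) each overlapped their neighbour. For Abcb11 the lowest group, WT KD 4 h (177 ± 8.32 CPM), stood apart from KO KD 24 h (209 ± 13.7 CPM), and the highest 2, KO CD 4 h (601 ± 28.3 CPM) and WT CD 4 h (677 ± 71.6 CPM), stood apart from the other 6. WT KD 4 h was not apart from WT CD 24 h, which held livers at 132 and 175 CPM of Abcb11. For Cyp2c70 WT CD 24 h (35.3 ± 8.61 CPM) lay below every liver of the other 7 groups. Cyp7b1 had its lowest mean in KO CD 24 h (92.1 ± 30.2 CPM) and Nr0b2 in WT KD 4 h (18.3 ± 2.50 CPM), each apart from the next group by mean but not from every other group, since WT CD 24 h held a liver at 33.2 CPM of Cyp7b1 and livers at 10.2 and 15.6 CPM of Nr0b2. In Cyp8b1, Cyp27a1, Baat, Slc10a1 and Nr1h4 every group overlapped the next in the order of means (SD, n = 4 throughout).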

How the data were processed

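The deposited table holds read counts and FPKM per gene for 32 libraries of whole liver. Per the submitters' processing notes, the authors used TopHat2 2.0.12 with Bowtie2 2.2.3 and HTSeq 0.6.1 on GRCm38 (mm10). For the annotation release and strand setting the sources used here give nothing, and reads of antisense overlaps cannot be separated. The deposited FPKM values equalled count over gene length and total in 100% of comparisons (within 0.1%) and were used only for levels between genes.

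Counts were tested with edgeR 4.0.16 (R 4.3.3; TMM, filterByExpr, quasi-likelihood, two-sided) with 8 group means over all 32 libraries, which left 14438 genes, 24 residual degrees of freedom and a common biological coefficient of variation of 0.235. Calls are adjusted p under 0.05 within each of 20 contrasts (12 pairwise, 7 interactions and the genotype average). SE is the size of the log2 fold change over the root of F. Normalised CPM is the count scaled to TMM library size. Scaled to the total counts without TMM, 3 counts stand at 0.121 to 0.224 CPM, and such floors cover counting error only. The script was tested on simulated counts of KO against WT on CD at 4 h.

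Alternatives were DESeq2 1.42.0, RLE size factors, no filter on low counts, only the groups of the contrast, without the 4 libraries holding muscle transcripts, leaving out the 2 libraries that lay near the other diet, and leaving out each library in turn. Without the libraries holding muscle transcripts, KO CD 24 h kept only replicates 3 and 4. Gene symbols turned into dates by a spreadsheet (27) were restored by identifier. No 2 replicates agreed within sampling noise (chi-square per degree of freedom of at least 5.84 in 48 pairs). The 10 genes and all lists were chosen with earlier results of these data known. Named genes are the 10, up to 4 other bile acid genes per contrast with the lowest adjusted p, the 3 most similar genes for each of the 10, and genes beside a result that they touch. Fgf15, Dbp, Arntl, Fgfr4 and Acta1 belong to the last kind where they fall outside the rule.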

Additional observations from a re-analysis of the deposited data

Results flagged for a closer look

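Within-group gaps in log2 CPM were examined in 80 sets of 4 livers (10 genes in 8 groups). In 4 sets a liver's gap to the nearest other, divided by the range of the group, was above the 95% critical value of Dixon's test. The ratios are of log2 CPM, and plain CPM values stand in brackets. Chance gives about 1 in 20. Cyp27a1 in WT CD 24 h replicate 1 was the lowest of its group, with a ratio of 0.894 (145 CPM against 363 to 404 CPM). Slc10a1 in the same liver had 0.942 (192 CPM against 596 to 639 CPM). Cyp2c70 in WT KD 24 h replicate 4 had 0.868 (57.9 CPM against 134 to 152 CPM), and Nr0b2 in WT KD 4 h replicate 2 had 0.854 (14.6 CPM against 19.1 to 20 CPM). Their cause was not tested.

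Effects that differed between conditions by the test of the difference itself were as follows (log2, edgeR). The fasting change differed between the diets in WT livers for Cyp7a1 (−4.00), Abcb11 (2.45), Cyp2c70 (2.03) and Nr0b2 (1.84), and in KO livers for Cyp7a1 (−4.34). The fasting change differed between genotypes for Cyp2c70 on CD (1.76) and for Abcb11 on KD (−1.67).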

How the results depend on the processing

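No paired analysis was possible because the labels give no replicate numbers that groups share. Of 40 calls among 200 pairs of gene and contrast, 40 held by DESeq2 (6 added), 38 with RLE size factors (1 added), 38 with no filter (1 added), 36 without the 4 libraries holding muscle transcripts (16 added), 33 without the 2 libraries near the other diet (0 added) and 34 of 38 with only the groups of the contrast (6 added). None changed sign, and 25 of the 40 held in every fit without 1 liver while 15 were lost in some.

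Counts of the 10 genes called moved as follows, and the cause was not tested. By DESeq2, KO against WT on KD at 4 h went from 2 to 3 and fasting in KO on CD from 5 to 6. KO against WT on CD at 4 h went from 0 to 1 with only its groups, and on KD at 4 h from 2 to 1. On CD at 24 h it went from 1 to 3 without muscle libraries, 0 without libraries near the other diet, 0 with only its groups and 2 by DESeq2. On KD at 24 h it went from 1 to 0 with RLE, 0 with no filter, 0 without libraries near the other diet and 2 with only its groups. The average over conditions went from 2 to 1 with RLE, 1 with no filter and 0 without libraries near the other diet. KD against CD in WT at 24 h went from 1 to 2 without muscle libraries. Fasting went from 5 to 3 in WT on CD with only its groups and from 5 to 3 in KO on CD without libraries near the other diet. Diet by fasting in KO went from 1 to 2 without muscle libraries. Genotype by fasting on CD went from 1 to 3 without muscle libraries and 0 without libraries near the other diet. Genotype by diet went from 0 to 1 at 4 h without muscle libraries, with only its groups and by DESeq2, and at 24 h from 0 to 2 without muscle libraries and 1 by DESeq2. The 3-way interaction went from 0 to 1 with RLE, with no filter and by DESeq2. Without 1 liver at a time, the count ran from 1 to 2 for KO against WT on KD at 4 h, 0 to 1 on CD at 24 h, 0 to 1 on KD at 24 h and 0 to 2 averaged. It ran from 1 to 2 for diet in WT at 24 h and 1 to 3 in KO at 4 h, and for fasting from 3 to 6 in WT on CD, 3 to 5 in KO on CD and 2 to 4 in KO on KD. It ran from 3 to 5 for diet by fasting in WT, 0 to 1 for genotype by fasting on CD and 0 to 1 for the 3-way interaction. Over all genes the number called also moved. KO against WT on CD at 24 h went from 299 to 2247 without muscle libraries and 576 by DESeq2. It went to 115 without libraries near the other diet and 13 with only its groups. Diet in KO at 24 h went from 1 to 109 by DESeq2 and 52 without libraries near the other diet. Genotype by fasting on CD went from 88 to 810 without muscle libraries and 68 without libraries near the other diet. Genotype by diet at 24 h went from 0 to 248 without muscle libraries and 54 by DESeq2. At 4 h it went from 15 to 66 without muscle libraries, 47 with only its groups and 88 by DESeq2. Diet by fasting in KO went from 201 to 578 without muscle libraries.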
